A study of Mus musculus with 8 samples.

Results

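The guanylate-binding proteins (GBPs) and the immunity-related GTPases (IRGs) are families of large GTPases that interferons induce, and 10 of their genes were compared in mouse lung after endotoxin shock. The 10 members were taken by symbol, matched to the Ensembl mouse identifiers of the count files: the GBP genes Gbp2, Gbp3, Gbp4, Gbp5, Gbp6, Gbp7 and Gbp9, and the IRG genes Irgm1, Irgm2 and Igtp. They were 10 of 55416 gene identifiers, and all 10 were among the 18560 genes that passed edgeR's filter on low counts. The lowest value of any member in any library was 2.74 CPM (counts scaled to library size by the trimmed mean of M values), for Gbp6 in control mouse 1.

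The lungs came from female C57BL/6J mice aged 6 to 8 weeks, and the labels give no genetic change. The 3 control mice (numbered 1, 2 and 4) received the DMSO vehicle intravenously and then saline into the abdomen, and the 3 mice of the LPS group (1, 6 and 7) received 35 mg/kg LPS into the abdomen. The dual-treatment group received the peptidylarginine deiminase inhibitor YW3-56 at 10 mg/kg shortly before the same dose of LPS, and is held by 2 mice (2 and 5). All lungs were taken at 24 h. DMSO is described for the control and dual-treatment groups only. In the LPS group against the control group, LPS and the lack of DMSO therefore cannot be told apart. In the dual-treatment group against the LPS group, YW3-56 and its DMSO solvent cannot be told apart. Library totals were 19061949, 19796242 and 20527836 counts for the control mice, 20818501, 19379911 and 19279724 for the LPS mice, and 19875939 and 20908608 for the dual-treated mice.

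Interferon gamma and type I interferons induce both families through transcription factors, among them interferon regulatory factors, that bind short DNA elements in the promoters. GBPs gather on the vacuoles of intracellular pathogens and on the surface of Gram-negative bacteria, where they help the cytosolic sensor caspase-11 to reach bacterial LPS. The IRGs of the M subfamily sit on the cell's own membranes and hold the effector IRGs inactive there, and in lung both families are known from macrophages and from tissue cells exposed to interferon.

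The lung label was checked against marker genes. The summed level of 9 alveolar and airway epithelial genes was 68216, 69507 and 74724 CPM in the control mice, 96819, 78229 and 72101 in the LPS mice and 43281 and 56288 in the dual-treated mice, with Scgb1a1 the most abundant (here and below, for each list, by the mean over all 8 libraries) and none of the 9 at 0 in any library. LPS mice 6 and 7 stood apart: the sum of 8 squamous epithelium genes was 790.0 and 2098 CPM in them, 0.948 in LPS mouse 1, 5.57, 10.6 and 11.03 in the control mice and 9.07 and 22.0 in the dual-treated mice. Krt13 was the most abundant of these genes, though Krt14 was above it in the control and dual-treated mice and Krt4 in LPS mouse 6. Of the 8 genes, 5, 4 and 4 were at 0 in the control mice, 3, 0 and 0 in the LPS mice, and 2 and 1 in the dual-treated mice. The sum of 6 skeletal muscle genes, led by Ckm, was 9.14, 18.4 and 12.9 CPM in the control mice, 16.0, 169 and 428 in the LPS mice and 4.62 and 6.93 in the dual-treated mice. The counts of members are therefore also given without LPS mice 6 and 7.

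A gene was called upregulated or downregulated where the quasi-likelihood F test of edgeR gave a p under 0.05 after adjustment over all tested genes (Benjamini-Hochberg) and the fold change was over 2. In the LPS group against the control group, 9 of the 10 members were upregulated, beside 17.9% of all tested genes upregulated and 21.3% downregulated. The count was also 9 without LPS mice 6 and 7, where LPS mouse 1 stands alone and is assumed to vary like the other groups. All 10 members were higher in every LPS mouse than in every control mouse, as were 34.7% of all tested genes. Together the 10 genes held 306, 337 and 338 CPM in the control mice, 5746, 5140.4 and 4699 in the LPS mice and 758 and 462 in the dual-treated mice. These sums were 0.0329%, 0.0363% and 0.0359% of all counts in the control mice, 0.466%, 0.460% and 0.437% in the LPS mice, and 0.0841% and 0.0504% in the dual-treated mice. The LPS mice were highest, the dual-treated mice lay between them and the control mice, and the 3 groups did not overlap. The lungs were measured in bulk, so fewer cells of a type and less RNA per cell cannot be told apart.

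Among the GBPs of chromosome 3, Gbp2 carries a lipid tail and gathers on pathogen vacuoles. Its level was 40.1, 49.7 and 54.5 CPM in the control mice, 1248, 1218 and 858 in the LPS mice and 122 and 76.3 in the dual-treated mice. LPS mouse 7 was the lowest of its group, and the groups did not overlap. Gbp2 was upregulated in the LPS group (log2 fold change 4.52, standard error 0.240, adjusted p = 8.6e-07). Gbp5, a lipid-modified GBP known for promoting inflammasome assembly, stood at 12.6, 15.1 and 10.9 CPM in the control mice, 567, 514 and 568 in the LPS mice and 33.3 and 16.7 in the dual-treated mice. The 3 LPS mice were close to each other, and dual-treated mouse 5 was just above the highest control mouse. Gbp5 rose with the second largest difference of the 10 members (log2 fold change 5.42, standard error 0.262, adjusted p = 6.16e-07). Gbp3, which lies in the same cluster, ranged from 20.3 to 25.6 CPM in the control mice, from 569.8 to 763 in the LPS mice and from 46.5 to 86.8 in the dual-treated mice, and was upregulated in the LPS group (log2 fold change 4.80, standard error 0.251, adjusted p = 7.96e-07).

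Gbp7 also lies in the chromosome 3 cluster and is known for carrying oxidase subunits and autophagy proteins to bacteria. It was measured at 36.1, 36.9 and 34.0 CPM in the control mice, 80.7, 72.6 and 90.8 in the LPS mice and 50.9 and 37.7 in the dual-treated mice. The groups again did not overlap, but the LPS mice were far nearer to the control mice than for the neighbouring Gbp3 and Gbp5. Gbp7 passed the call rule in the LPS group by a small margin (log2 fold change 1.19, standard error 0.130, adjusted p = 3.49e-05; fold change 2.28). That call was lost when counts were scaled by library size only, at a log2 fold change of 0.91, and in edgeR's test against a fold change of 2 (adjusted p = 0.0894).

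The GBPs of chromosome 5 included the member with the largest difference. Gbp6 was at 2.74, 4.59 and 3.997 CPM in the control mice, 227, 229 and 224 in the LPS mice and 12.8 and 5.0 in the dual-treated mice. The 3 LPS mice were nearly equal, and dual-treated mouse 5 lay just above control mouse 2. Gbp6 was upregulated in the LPS group (log2 fold change 5.90, standard error 0.331, adjusted p = 1.04e-06; fold change 59.9). Gbp4 ranged from 24.8 to 27.1 CPM in the control mice, from 521 to 589 in the LPS mice and from 48.9 to 84.0 in the dual-treated mice (log2 fold change 4.44, standard error 0.199, adjusted p = 4.64e-07, LPS group against control group). Gbp9 ranged from 49.2 to 55.3 CPM, from 498 to 632 and from 76.5 to 143 in the same order of groups (log2 fold change 3.44, standard error 0.221, adjusted p = 1.91e-06).

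The 3 IRGs are regulators of the M subfamily. Irgm1, known for its place on lysosomes, mitochondria and the Golgi, was at 34.1, 42.5 and 40.4 CPM in the control mice, 1105, 806 and 754 in the LPS mice and 76.7 and 49.9 in the dual-treated mice. LPS mouse 1 was the highest, and no group overlapped another. It was upregulated in the LPS group (log2 fold change 4.51, standard error 0.223, adjusted p = 6.34e-07). Igtp, also named Irgm3 and known from the endoplasmic reticulum and lipid droplets, was at 32.0, 29.9 and 39.9 CPM in the control mice, 509, 490.2 and 427 in the LPS mice and 62.8 and 42.0 in the dual-treated mice. Dual-treated mouse 5 lay just above control mouse 4, and the LPS mice were far above both groups. Igtp was upregulated (log2 fold change 3.81, standard error 0.185, adjusted p = 6.16e-07).

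Irgm2, a Golgi-associated regulator known to restrain caspase-11 responses, was the member that missed the call. Its level was 54.2, 51.0 and 53.2 CPM in the control mice, 93.1, 88.9 and 95.6 in the LPS mice and 85.6 and 62.5 in the dual-treated mice. Each group was tight except for the dual-treatment group, whose mouse 2 came close to the lowest LPS mouse. The difference between the LPS and control groups passed the adjusted test but not the fold criterion (log2 fold change 0.81, standard error 0.116, adjusted p = 0.000201; 95% interval 0.55 to 1.07; fold change 1.75).

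**Figure D1:**
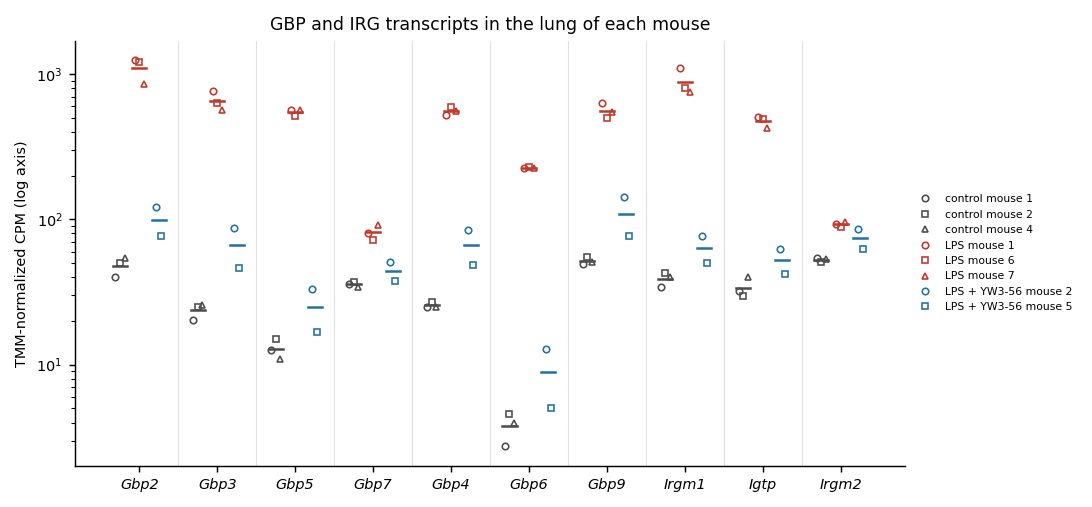
Level of each of the 10 members in every mouse, in CPM on a log scale, by group.

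In the dual-treatment group against the control group, 5 of the 10 members were upregulated (Gbp2, Gbp3, Gbp4, Gbp6 and Gbp9), beside 5.25% of all tested genes upregulated and 1.90% downregulated. All 10 were higher in both dual-treated mice than in every control mouse, as were 26.1% of all tested genes. Gbp3 had the largest difference (log2 fold change 1.5, standard error 0.240, adjusted p = 0.00339), ahead of Gbp4 (log2 fold change 1.37, standard error 0.194, adjusted p = 0.00181) and Gbp6 (log2 fold change 1.23, standard error 0.339, adjusted p = 0.037). Gbp9 was at 1.08 (adjusted p = 0.0112) and Gbp2 at 1.04 (adjusted p = 0.0154) on the log2 scale. Gbp5, Irgm2 and Igtp passed the adjusted test with a fold change under 2: Gbp5 at 0.96 (adjusted p = 0.0302), Irgm2 at 0.49 (adjusted p = 0.0301) and Igtp at 0.63 (adjusted p = 0.0489). Irgm1 was at 0.70 (adjusted p = 0.0566), and Gbp7 at 0.31 (adjusted p = 0.174) with a 95% interval of -0.0076 to 0.63. The count of 5 members rested on few mice: edgeR gave 0 calls without dual-treated mouse 2, also at an unadjusted p under 0.05, 3 without control mouse 1 and 3 without control mouse 2, while DESeq2 on all mice gave 5. Without dual-treated mouse 2 the group holds a lone mouse, assumed to vary like the other groups, and Gbp3 at 0.95 (adjusted p = 0.0159) and Gbp4 at 0.90 (adjusted p = 0.00505) then passed the adjusted test with a fold change under 2. Gbp2 lost its call without control mouse 1 or 2, and Gbp6 without any 1 control mouse, without LPS mouse 6, without LPS mice 6 and 7, with only the 2 compared groups fitted (1.25, adjusted p = 0.0638) and without dual-treated mouse 2, where its log2 fold change was 0.37. A count of 4 was obtained without control mouse 4, without LPS mouse 6, without LPS mice 6 and 7 and with only the 2 groups fitted, and a count of 6 with scaling by library size only and without dual-treated mouse 5. edgeR's test against a fold change of 2 gave 0 calls, with 2 members at an unadjusted p under 0.05, while the adjusted test with no fold criterion gave 8. The 3 of these 8 with a fold change under 2 did not pass it without control mouse 1: Gbp5 (adjusted p = 0.0903), Irgm2 (0.0746) and Igtp (0.139). Igtp also missed it with RLE scaling (adjusted p = 0.0549) and with only the 2 groups fitted (0.0505).

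The 2 dual-treated mice differed in the same direction for every member. Gbp6 had the largest ratio of mouse 2 to mouse 5, at 2.57, followed by Gbp5 at 1.99, Gbp3 and Gbp9 at 1.87, Gbp4 at 1.72, Gbp2 at 1.60, Irgm1 at 1.54, Igtp at 1.5, Irgm2 at 1.37 and Gbp7 at 1.35. All 10 members were thus higher in mouse 2, against 48.0% of all tested genes. Of the other lists, 12 of 12 type I interferon response genes were higher in mouse 2, as were 6 of 9 other interferon gamma targets, 11 of 13 other IRGs, 2 of 3 other GBPs, 5 of 5 very large and dynamin-like GTPases, 7 of 10 kinases and transcription factors of interferon signalling, and 4 of 4 of its inhibitors. Mouse 2 was higher in fewer genes of other lists. It was higher in 1 of 7 inflammasome genes, 4 of 13 Atg8 and ubiquitin genes and 2 of 5 ligands and receptors. It was higher in 2 of 5 prenylation enzymes, 0 of 7 neutrophil markers and 3 of 8 T and NK cell markers. The counts were 4 of 9 for macrophage and monocyte markers, 2 of 7 for endothelial markers and 4 of 9 for epithelial markers. B cell markers were higher in mouse 2 for 4 of 4. Ifit1 was at 93.0 against 39.3 CPM, while Irf1 stood at 109.7 and 119.5, Gbp8 at 3.31 and 5.48, and Psmb9 at 56.1 and 67.2, the last of these named after its values were seen. The summed neutrophil markers were 1713 CPM in mouse 2 and 2385 in mouse 5, and the summed B cell markers 70.3 and 24.6. The part of these cell types in the difference between the mice was not tested.

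Against the LPS group, 8 of the 10 members were downregulated in the dual-treatment group, beside 14.0% of all tested genes downregulated and 19.8% upregulated. The same count was found without LPS mice 6 and 7, again with a lone LPS mouse assumed to vary like the other groups. All 10 were lower in both dual-treated mice than in every LPS mouse, as were 32.9% of all tested genes. The 3 comparisons share groups, so their values are not independent of each other. Gbp6 had the largest difference (log2 fold change -4.67, standard error 0.364, adjusted p = 1.14e-05), and Gbp5 came next (log2 fold change -4.46, standard error 0.297, adjusted p = 6.45e-06). Irgm1 followed (log2 fold change -3.81, standard error 0.256, adjusted p = 6.62e-06). The next were Gbp2 at -3.48 (adjusted p = 1.14e-05), Gbp3 at -3.30 (adjusted p = 1.54e-05), Igtp at -3.18 (adjusted p = 6.45e-06), Gbp4 at -3.07 (adjusted p = 8.14e-06) and Gbp9 at -2.35 (adjusted p = 5.12e-05) on the log2 scale. Gbp7 passed the adjusted test with a fold change under 2 (log2 fold change -0.88, standard error 0.146, adjusted p = 0.000739), and was called without dual-treated mouse 2, at -1.14. Irgm2 did not pass the adjusted test (log2 fold change -0.32, standard error 0.129, adjusted p = 0.056; 95% interval -0.61 to -0.031), and its log2 fold change turned to 0.0060 when counts were scaled by library size only. It passed the adjusted test, with a fold change under 2, in DESeq2 at -0.38 (adjusted p = 0.0261), in edgeR with RLE scaling at -0.38 (adjusted p = 0.0320) and without dual-treated mouse 2 at -0.59 (adjusted p = 0.00270). Scaling by library size only moved the median over all genes to -0.294 for the LPS group against the control group and to 0.383 for the dual-treatment group against the LPS group. With it, the share of calls that were upregulated went from 45.6% to 32.5% in the former comparison and from 58.5% to 74.7% in the latter.

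**Figure D2:**
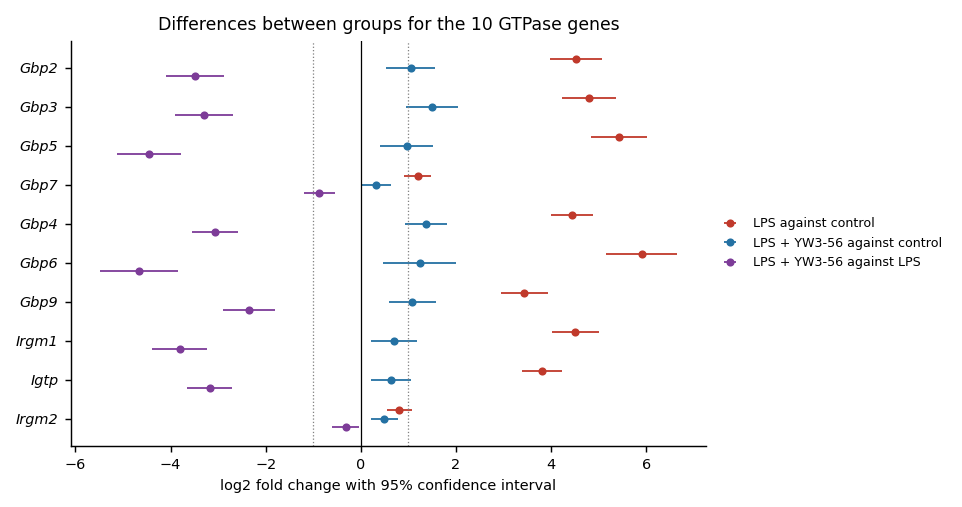
Log2 fold change of each member in the 3 comparisons with its 95% interval; dotted lines mark a fold change of 2.

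Levels of different genes were compared as CPM per kilobase of exon. In the control group Gbp2 was highest with a mean of 18.8, followed by Irgm2 at 14.1 and Igtp at 7.45. Irgm1 (6.14), Gbp7 (5.95), Gbp3 (5.56) and Gbp9 (5.35) followed Igtp with overlapping ranges between neighbours in the order. Gbp4 (2.65), Gbp5 (1.77) and Gbp6 (0.556) came last, each below the one before it in every control mouse. In the LPS group Gbp2 was again highest, at 433, and Gbp3 (154) and Irgm1 (139.8) overlapped in their ranges. Igtp was at 104, Gbp5 at 75.4, Gbp9 at 57.9 and Gbp4 at 57.4, the last of these overlapping with Gbp9. Gbp6 reached 33.4, Irgm2 24.7 and Gbp7 13.6, so that Irgm2 moved from rank 2 in the control group to rank 9 and Gbp7 from rank 5 to rank 10. In the dual-treatment group Gbp2 (38.7) and Irgm2 (19.8) were again the highest, and Gbp5 (3.43) and Gbp6 (1.31) the lowest, as in the control group. The 6 members in between, from Gbp3 at 15.7 to Gbp7 at 7.39 and Gbp4 at 6.85, overlapped between neighbours in the order.

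Ratios of counts within a mouse, which need no scaling between libraries, were taken for pairs chosen by their fold changes, a strong member over a weak one, and so restate those fold changes as a description. The ratio of Igtp to Irgm2, whose annotated spans overlap on chromosome 11, was 0.591, 0.586 and 0.751 in the control mice, 5.47, 5.51 and 4.47 in the LPS mice and 0.734 and 0.671 in the dual-treated mice. Only the LPS mice were apart, and the dual-treated mice lay inside the range of the control mice. The ratio of Irgm1 to Irgm2 was 0.628, 0.834 and 0.761 in the control mice, 11.9, 9.06 and 7.89 in the LPS mice and 0.896 and 0.797 in the dual-treated mice. Here 1 dual-treated mouse lay inside the control range and the other above it. The ratio of Gbp5 to Gbp7, neighbours on chromosome 3, was 0.348, 0.410 and 0.322 in the control mice, 7.02, 7.07 and 6.25 in the LPS mice and 0.654 and 0.444 in the dual-treated mice. That of Gbp3 to Gbp7 was 0.564, 0.676 and 0.753 in the control mice, 9.45, 8.75 and 6.27 in the LPS mice and 1.70 and 1.23 in the dual-treated mice. For both pairs the dual-treated mice were above every control mouse and below every LPS mouse.

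The other genes of both families were read from lists. Of 6 other GBP symbols 5 were counted and 3 were tested. Gbp11 was at 0.440, 0.563 and 0.505 CPM in the control mice, 80.4, 79.9 and 68.5 in the LPS mice and 3.76 and 0.526 in the dual-treated mice. Gbp10 was at 0.147, 0.422 and 0.230 CPM in the control mice, 19.03, 20.3 and 21.1 in the LPS mice and 0.952 and 0.482 in the dual-treated mice. Gbp10 was below the level of the filter on low counts in every control library and passed it through the mice given LPS, so it had to differ. Gbp11 reached that level in 2 of the 3 control libraries by a small margin, and the values of both are given without a test. Gbp8 was at 2.84, 3.47 and 5.05 CPM in the control mice, 29.5, 23.3 and 22.8 in the LPS mice and 3.31 and 5.48 in the dual-treated mice. Its LPS mice were apart from both other groups, which overlapped. Gbp8 was upregulated in the LPS group (log2 fold change 2.73, standard error 0.261, adjusted p = 1.58e-05) and downregulated in the dual-treatment group against it (log2 fold change -2.51, standard error 0.301, adjusted p = 0.000107). Gbp2b had 2 to 6 counts in every library and Gbp2-ps at most 1, and neither was tested.

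Of 22 other IRG symbols 14 were counted and 13 tested. In the LPS group 9 of the 13 were upregulated and the other 4 passed in neither direction, with a median log2 fold change of 2.72 beside -0.01 over all tested genes; 3 of the 13 were upregulated in the dual-treatment group against the control group, and 9 were downregulated against the LPS group. Without Gm4841, which reached the level of the filter on low counts in 2 of the 3 control libraries by a small margin, these counts were 8, 2 and 8 of 12. Iigp1 (Irga6), an effector IRG that loads onto vacuoles, was the most abundant over all libraries, though below Ifi47 and Irgq in every control mouse, at 30.2, 28.8 and 25.3 CPM in the control mice, 702, 640.0 and 687 in the LPS mice and 70.1 and 34.6 in the dual-treated mice. Both dual-treated mice were above every control mouse, mouse 5 by a small margin. Iigp1 was upregulated in the LPS group (log2 fold change 4.59, standard error 0.247, adjusted p = 8.84e-07), as was the effector Ifi47 (Irgd) (log2 fold change 4.04, standard error 0.198, adjusted p = 6.16e-07). The effectors Tgtp1 and Tgtp2 (Irgb6) are near-identical copies, whose reads the authors' counting could split, and so are uncertain: Tgtp1 was at 4.02 (adjusted p = 2e-06) and Tgtp2 at 1.95 (adjusted p = 6.82e-05). Irgq, which lacks a working GTPase site, was at 33.2, 38.0 and 38.2 CPM in the control mice and 42.9, 34.8 and 37.5 in the LPS mice, and did not pass the test (log2 fold change 0.073, standard error 0.109, adjusted p = 0.573). Of these 12, the 2 that were upregulated in the dual-treatment group against the control group were Gm12250 (Irgb10) at 1.83 (adjusted p = 0.00166) and Gm5431 at 1.76 (adjusted p = 0.00144), which were at 4.04 (adjusted p = 1.46e-06) and 3.59 (adjusted p = 1.69e-06) in the LPS group against the control group. Gm4841 is given by its levels alone, 0.293, 0.469 and 0.505 CPM in the control mice, 19.3, 25.2 and 22.9 in the LPS mice and 1.54 and 0.921 in the dual-treated mice. Gm12185 at 2.60 (adjusted p = 1.86e-05) and F830016B08Rik at 2.72 (adjusted p = 4.98e-05) were also upregulated in the LPS group. 9930111J21Rik1 at 0.50 (adjusted p = 0.164), 9930111J21Rik2 at 0.51 (adjusted p = 0.0436) and Irgc at 0.37 (adjusted p = 0.679) were not. Irgc lay near the floor, so its test says little, though it is among the 13 and the 12. It had 2, 6 and 11 counts in the control mice, 13, 3 and 4 in the LPS mice and 6 and 9 in the dual-treated mice. Gm12187 was not tested.

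Among the very large and dynamin-like GTPases 2 of 5 were upregulated in the LPS group, Mx1 at 5.23 (adjusted p = 1.24e-05) and Mx2 at 5.29 (adjusted p = 5.61e-06), while Gvin1 was at 0.68 (adjusted p = 0.0286), Gvin2 at 0.83 (adjusted p = 0.0297) and Gvin3 at -0.35 (adjusted p = 0.261). Gvin3 was upregulated in the dual-treatment group against the LPS group (log2 fold change 1.32, standard error 0.286, adjusted p = 0.00337).

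Upstream of the GTPases, Ifng, which encodes interferon gamma, had 2, 1 and 3 counts in the control mice, 93, 41 and 8 in the LPS mice and 0 and 5 in the dual-treated mice. The LPS mice differed widely, mouse 1 being the highest and mouse 7 near the dual-treated mice. Ifng passed the filter on low counts through the LPS group, so its counts are given without a test. Ifnb1, the interferon beta gene, had 1, 2 and 1 counts in the control mice, 6, 9 and 11 in the LPS mice and 1 and 0 in the dual-treated mice, and was not tested. The interferon gamma receptor gene Ifngr1 was at 0.59 (adjusted p = 0.000742) on the log2 scale and Ifngr2 at -0.40 (adjusted p = 0.0156), in the LPS group. Of the type I receptor genes, Ifnar1 was at 0.046 (adjusted p = 0.69) and Ifnar2 at 0.80 (adjusted p = 0.000331), so that all 4 receptor genes stayed under a fold change of 2.

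Of 10 interferon signalling kinases and transcription factors 7 were upregulated and 1 was downregulated in the LPS group (median 1.87), 1 was upregulated in the dual-treatment group against the control group, and 1 was upregulated and 6 were downregulated against the LPS group. Irf1, a transcription factor needed for much of the induction of GBP genes, was at 124, 140.3 and 146 CPM in the control mice, 1121, 714 and 801 in the LPS mice and 109.7 and 119.5 in the dual-treated mice. The dual-treated mice were below every control mouse, unlike the members, which were all above. Irf1 was upregulated in the LPS group (log2 fold change 2.68, standard error 0.175, adjusted p = 2.04e-06) and did not pass the test in the dual-treatment group against the control group (log2 fold change -0.26, standard error 0.186, adjusted p = 0.394).

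Stat2, part of the type I interferon complex with Irf9, was at 68.6, 68.4 and 65.6 CPM in the control mice, 574, 469 and 543 in the LPS mice and 132 and 79.4 in the dual-treated mice (log2 fold change 2.97, standard error 0.183, adjusted p = 1.58e-06, LPS group against control group). Irf7, which amplifies type I interferon, was the gene of this list upregulated in the dual-treatment group against the control group, at 23.4, 28.1 and 23.3 CPM in the control mice, 824, 739 and 629.9 in the LPS mice and 329 and 193 in the dual-treated mice (log2 fold change 3.39, standard error 0.223, adjusted p = 3.95e-05). The kinase gene Jak2 rose in the LPS group to 1.57 (adjusted p = 5.54e-06) on the log2 scale, while Jak1 was at 0.75 (adjusted p = 0.000218). Tyk2, the kinase of the type I receptor, was at 58.0, 63.6 and 62.2 CPM in the control mice, 36.6, 29.5 and 38.9 in the LPS mice and 61.2 and 66.8 in the dual-treated mice. It was lower in every LPS mouse than in every control mouse, and passed the adjusted test with a fold change under 2 (log2 fold change -0.81, standard error 0.114, adjusted p = 0.000188). The transcription factor genes Irf8 at 2.17 (adjusted p = 1.12e-06), Irf9 at 1.13 (adjusted p = 1.02e-05) and Batf2 at 3.54 (adjusted p = 2.98e-07) were also upregulated. Irf2, which competes with Irf1 for the same element, was the gene downregulated, at 65.0, 59.7 and 59.4 CPM in the control mice, 22.1, 22.3 and 14.4 in the LPS mice and 61.7 and 59.2 in the dual-treated mice (log2 fold change -1.65, standard error 0.155, adjusted p = 1.42e-05). It was also the gene upregulated in the dual-treatment group against the LPS group (log2 fold change 1.63, standard error 0.167, adjusted p = 4.7e-05). The 4 inhibitors of interferon signalling were all upregulated in the LPS group and all downregulated in the dual-treatment group against the LPS group. Socs1, which blocks the Jak kinases, was at 4.74, 5.53 and 5.51 CPM in the control mice, 150.1, 81.4 and 94.5 in the LPS mice and 5.98 and 4.91 in the dual-treated mice (log2 fold change 4.37, standard error 0.240, adjusted p = 9.57e-07). The others in the LPS group were Socs3 at 3.13 (adjusted p = 8.97e-07), Usp18 at 2.89 (adjusted p = 1.42e-05) and Ptpn2 at 2.36 (adjusted p = 2.05e-06).

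**Figure D3:**
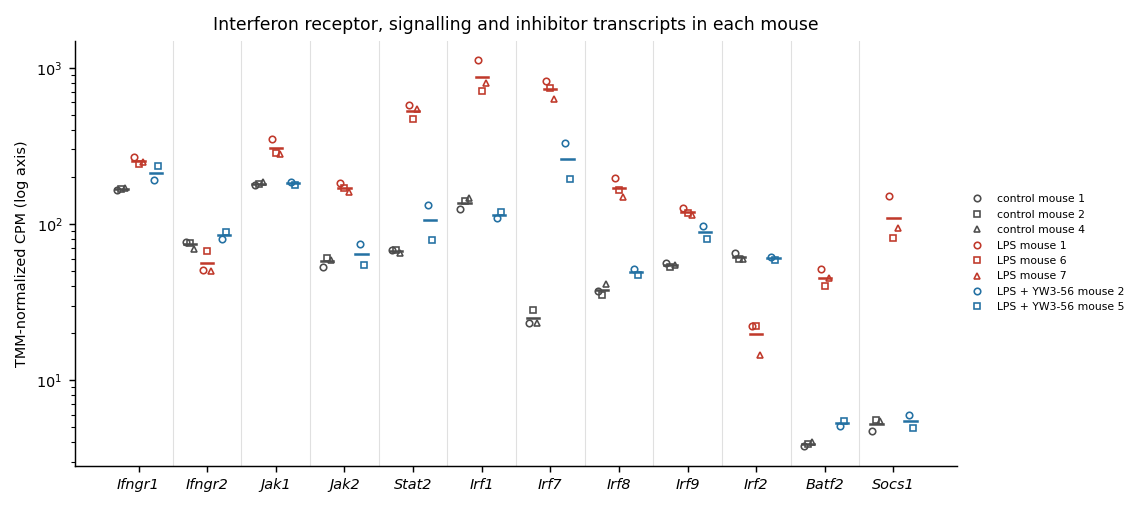
Level of interferon receptor, kinase, transcription factor and inhibitor genes in every mouse, in CPM on a log scale, by group.

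Downstream of the GBPs, 5 of 7 genes of the canonical and non-canonical inflammasome pathways were upregulated in the LPS group. In the dual-treatment group 4 of 7 were upregulated against the control group, and 3 of 7 were downregulated against the LPS group. Casp4, the mouse gene of caspase-11, was at 12.1, 11.7 and 11.1 CPM in the control mice, 119, 100 and 103 in the LPS mice and 40.9 and 28.3 in the dual-treated mice. The groups did not overlap, and the dual-treated mice lay between. Casp4 was upregulated in the LPS group (log2 fold change 3.21, standard error 0.149, adjusted p = 5.54e-07) and in the dual-treatment group against the control group (log2 fold change 1.57, standard error 0.155, adjusted p = 0.000272). Gsdmd, the pore protein that caspase-11 cleaves, was at 56.0, 59.4 and 59.4 CPM in the control mice, 50.8, 57.9 and 46.1 in the LPS mice and 92.9 and 97.98 in the dual-treated mice. Its control and LPS mice overlapped, and the dual-treated mice were the highest (log2 fold change 0.71, standard error 0.108, adjusted p = 0.00263, against the control group). Il1b was at 3.28 (adjusted p = 1.98e-06) and Casp1 at 1.66 (adjusted p = 3.19e-05) in the LPS group.

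IRGs and GBPs reach vacuoles with the help of the Atg8 conjugation machinery, and ubiquitin ligases and adaptors follow them there. Of 13 genes of these kinds 4 were upregulated in the LPS group. The same 4 were downregulated in the dual-treatment group against the LPS group. In the LPS group the ubiquitin ligase genes were Traf6 at 2.15 (adjusted p = 9.51e-07) and Trim21 at 1.57 (adjusted p = 3.12e-06). The others there were the Atg8 gene Map1lc3b at 1.45 (adjusted p = 2.81e-06) and the adaptor gene Sqstm1 at 1.30 (adjusted p = 6.79e-06). Gabarap, an Atg8 protein, was at 0.077 (adjusted p = 0.585) and Gabarapl1 at -0.058 (adjusted p = 0.717). The list had a median of 0.077. The prenylation enzymes attach the lipid tails of some GBPs or process that end of the protein afterwards. In the LPS group they ranged from Icmt at -0.94 (adjusted p = 3.14e-05) to Rce1 at 0.79 (adjusted p = 0.000128), all 5 within a fold change of 2. Between these were Fntb at -0.43 (adjusted p = 0.00807), Fnta at -0.41 (adjusted p = 0.00185) and Pggt1b at -0.20 (adjusted p = 0.0484). Icmt was upregulated in the dual-treatment group against the LPS group (log2 fold change 1.03, standard error 0.1101, adjusted p = 5.68e-05).

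Other interferon gamma targets were upregulated in the LPS group in 8 of 9 cases (median 3.36), 3 of 9 were upregulated in the dual-treatment group against the control group, and 7 of 9 were downregulated against the LPS group. Without Ido1, which reached the level of the filter on low counts in only 1 dual-treated library, the last count was 6 of 8. The chemokine gene Cxcl9 had the largest difference, at 0.684, 0.656 and 1.29 CPM in the control mice, 962, 764 and 614 in the LPS mice and 27.2 and 10.4 in the dual-treated mice (log2 fold change 9.78, standard error 0.479, adjusted p = 6.16e-07). The antigen-processing gene Tap1 was at 3.84 (adjusted p = 4.64e-07) and Psmb8 at 2.27 (adjusted p = 1.34e-06), and the checkpoint ligand gene Cd274 at 5.04 (adjusted p = 1.63e-07). Ciita, the regulator of MHC class II genes, did not pass the test (log2 fold change 0.35, standard error 0.217, adjusted p = 0.179). All 12 type I interferon response genes were upregulated in the LPS group (median 3.45), 9 of 12 in the dual-treatment group against the control group (median 1.43 beside 0.0042 over all tested genes), and 8 were downregulated against the LPS group. The 4 most abundant over all libraries were at 1.14 (adjusted p = 0.0177) for Ifit3, 0.28 (adjusted p = 0.575) for Ifit2, 0.36 (adjusted p = 0.631) for Rsad2 and 1.30 (adjusted p = 0.038) for Ifit1 in the dual-treatment group against the control group. There Ifit2, Rsad2 and Cmpk2 at -0.14 (adjusted p = 0.771) were the 3 that were not called. Among those called were the antiviral genes Oasl2 at 1.60 (adjusted p = 0.00153) and Oas2 at 2.68 (adjusted p = 9.39e-06), the ubiquitin-like Isg15 at 1.88 (adjusted p = 0.00669) and the nucleic acid sensor gene Zbp1 at 3.5 (adjusted p = 7.51e-05). For the members themselves the medians against the control group were 4.52 for the 7 GBPs and 3.81 for the 3 IRGs in the LPS group. They were 1.08 and 0.63 in the dual-treatment group.

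Marker genes of other cell types were also read from lists, and some of them differed between the groups. Of 7 endothelial markers 5 were downregulated in the LPS group and 5 upregulated in the dual-treatment group against the LPS group, with sums of 3482, 3859 and 3963 CPM in the control mice, 2128, 1774 and 1756 in the LPS mice and 3450.3 and 3760.1 in the dual-treated mice. Cdh5 was the most abundant of them over all libraries, and Pecam1 in the dual-treated mice. Of 9 macrophage and monocyte markers, led by Csf1r, 1 was upregulated and 4 were downregulated in the LPS group, 5 were upregulated in the dual-treatment group against the control group, and 7 against the LPS group. Their sums were 377, 281 and 359.8 CPM in the control mice, 327, 329 and 215 in the LPS mice and 672 and 822 in the dual-treated mice. Of 7 neutrophil markers, led by S100a9, Ly6g, named after its values were seen, passed the filter on low counts through the mice given LPS. Of the other 6, 5 were upregulated in the LPS group and 6 in the dual-treatment group, each against the control group. The sums of all 7 were 214, 118 and 125 CPM in the control mice, 2124, 2945 and 1841 in the LPS mice and 1713 and 2385 in the dual-treated mice. Against the LPS group, 4 of the 7 were upregulated and 1 was downregulated in the dual-treatment group. The former were Retnlg at 1.49, Cxcr2 at 1.48, Mmp8 at 1.08 and Csf3r at 1.05 on the log2 scale. The 1 downregulated was Ly6g, with a log2 fold change of -2.75. Ly6g was at 0.831, 0.141 and 0.368 CPM in the control mice, 10.1, 26.7 and 11.5 in the LPS mice and 0.907 and 3.86 in the dual-treated mice. As it was named after its values were seen, they are given without a test. T and NK cell markers, led by Gzmb, summed to 17.5, 13.0 and 13.4 CPM in the control mice, 50.7, 40.2 and 20.6 in the LPS mice and 28.5 and 48.8 in the dual-treated mice. B cell markers, led by Cd79b, summed to 35.9, 40.7 and 38.5 CPM in the control mice, 24.4, 24 and 16.6 in the LPS mice and 70.3 and 24.6 in the dual-treated mice. Of 8 T and NK cell markers 1 passed the filter without reaching its level in the LPS group, and of the other 7, 1 was upregulated and 1 downregulated in the LPS group; of 4 B cell markers 2 were downregulated. Of the 9 epithelial markers 2 were upregulated in the LPS group. In the dual-treatment group against the LPS group, 3 epithelial markers were downregulated (Scgb1a1, Foxj1 and Epcam) and 2 B cell markers upregulated. Of the same 7 T and NK cell markers 1 was upregulated and 1 downregulated there. Every marker of the endothelial, macrophage, neutrophil, T and NK cell and B cell lists had counts in every library. The part of these cell types in the values of the members was not tested.

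By position, Gbp5, Gbp7, Gbp3 and Gbp2 span 144 kb of chromosome 3, and Gbp9, Gbp4 and Gbp6 span 219 kb of chromosome 5 (GRCm39). Igtp and Irgm2 lie within 23.8 kb of chromosome 11, and Irgm1 elsewhere on the same chromosome. The nearest tested protein-coding genes outside the lists on each side, chosen by position, had their own patterns in the LPS group against the control group. Beside the chromosome 3 cluster, Pdlim5 was at 0.67 (adjusted p = 0.000589) and Kyat3 at 0.35 (adjusted p = 0.188) on the log2 scale, both under a fold change of 2. Beside the chromosome 5 cluster, the transporter gene Abcg3 was at 4.06, 4.50 and 5.10 CPM in the control mice, 0.119, 0.0577 and 0.112 in the LPS mice and 6.03 and 15.5 in the dual-treated mice. It was near the floor in the LPS mice and passed the filter on low counts through the other groups, so its values are given without a test. On the other side Lrrc8b was at -0.40 (adjusted p = 0.00717). Beside Irgm1, Trim7 was downregulated at -1.44 (adjusted p = 0.00107) and Psme2b upregulated at 1.81 (adjusted p = 0.00012). Beside Igtp and Irgm2, Mrpl22 was at 0.61 (adjusted p = 0.00964) while 4930438A08Rik was at 0.0489, 0.0938 and 0.0919 CPM in the control mice, 10.8, 10.9 and 6.02 in the LPS mice and 1.59 and 1.18 in the dual-treated mice. With 1 to 2 counts in the control mice it passed the filter through the mice given LPS, so it is given without a test as well. Within the chromosome 3 cluster the member with the small difference, Gbp7, lay between Gbp5 and Gbp3, which differed strongly.

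**Figure D4:**
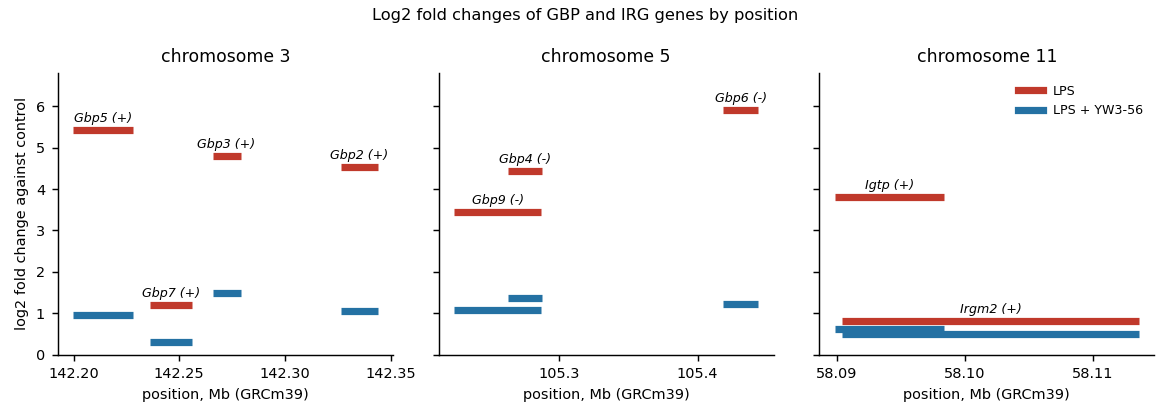
Log2 fold change against the control group of 9 members by position on chromosomes 3, 5 and 11, without Irgm1; red, LPS group; blue, dual-treatment group.

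Several members share exon sequence with other genes, and the annotation release, strand setting and treatment of reads with several matches were not stated by the authors. In the GENCODE annotation used here, 25.4% of the exon length of Gbp6 is shared with Gm43302, which had 0 to 21 counts, as is 44.0% of that of Gbp10. Gbp7 shares 10.6% with the pseudogene Gm43802, which had no counts in any library. Igtp and Irgm2 share 162 bases, which are 3.55% of the exon length of Igtp and 4.33% of that of Irgm2. Gbp4, Gbp8 and Gbp9 share 107 bases. The values of these genes are uncertain to that extent, and more widely where reads match several GBPs. Gbp3, Gbp5 and Irgm1 overlap with no other gene's exons.

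Promoter sequences, from 250 bases before to 50 bases after the gene start, were taken from RefSeq (build GRCm38.p6) for 7 of the 10 members, with 8 entries since Gbp3 has 2; Gbp4, Gbp6 and Gbp9 had no entry. The motifs searched, on both strands, were GAAANNGAAA, the core of the interferon-stimulated response element, and TTCNNNGAA, the gamma-activated site, which reads the same on both strands. In the printed promoters the matches to the different motifs do not overlap. The first was found in 7 of the 8 entries (87.5%), covering all 7 genes, beside 3.44% of all 32851 promoters and 5.68% of those of genes upregulated in the LPS group. Of related lists, it was found in 5 of 9 promoters of other IRGs (55.6%) and 1 of 1 of other GBPs. For type I interferon response genes the count was 5 of 10 (50%), and for other interferon gamma targets 0 of 5. These related lists leave out any promoter on the chromosome of Iigp1, which the shares over all promoters do not. The second was found in 4 of the 8 (50%), those of Gbp5, Gbp7, Igtp and Irgm2, beside 8.30% of all promoters and 8.94% of those of genes upregulated in the LPS group. Both motifs were held by these 4, beside 0.454% of all promoters and 4 of 9 of other IRGs (44.4%). The promoters of Gbp5 (chr3:142496684-142496983 on the plus strand) and Gbp7 (chr3:142530086-142530385 on the plus strand) are shown as neighbours that hold both motifs and differed strongly and weakly in the LPS group. Those of Igtp (chr11:58199306-58199605 on the plus strand) and Irgm2 (chr11:58214727-58215026 on the plus strand) are shown for the same reason, and those of Gbp2 (chr3:142620413-142620712 on the plus strand) and Irgm1 (chr11:48871371-48871670 on the minus strand) as strongly differing members with the first motif alone. Capitals mark the matches to either motif, and a match describes the letters only.
Gbp5: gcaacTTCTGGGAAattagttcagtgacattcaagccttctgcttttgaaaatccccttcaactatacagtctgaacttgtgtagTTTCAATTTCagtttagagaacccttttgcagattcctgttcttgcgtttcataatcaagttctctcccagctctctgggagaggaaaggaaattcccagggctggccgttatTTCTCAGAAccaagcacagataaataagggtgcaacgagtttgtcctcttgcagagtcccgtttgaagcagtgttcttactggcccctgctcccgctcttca
Gbp7: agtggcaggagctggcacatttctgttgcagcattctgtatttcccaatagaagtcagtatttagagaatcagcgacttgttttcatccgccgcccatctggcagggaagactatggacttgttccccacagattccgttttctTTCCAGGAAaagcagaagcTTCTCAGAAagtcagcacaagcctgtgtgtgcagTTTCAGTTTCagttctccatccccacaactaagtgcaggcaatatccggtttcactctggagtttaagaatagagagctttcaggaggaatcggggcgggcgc
Gbp2: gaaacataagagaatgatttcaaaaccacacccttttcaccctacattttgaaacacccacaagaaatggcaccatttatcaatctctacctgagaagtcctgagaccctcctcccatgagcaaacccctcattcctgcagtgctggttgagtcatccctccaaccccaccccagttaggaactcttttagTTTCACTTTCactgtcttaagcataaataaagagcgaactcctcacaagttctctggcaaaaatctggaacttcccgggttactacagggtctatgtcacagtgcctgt
Irgm1: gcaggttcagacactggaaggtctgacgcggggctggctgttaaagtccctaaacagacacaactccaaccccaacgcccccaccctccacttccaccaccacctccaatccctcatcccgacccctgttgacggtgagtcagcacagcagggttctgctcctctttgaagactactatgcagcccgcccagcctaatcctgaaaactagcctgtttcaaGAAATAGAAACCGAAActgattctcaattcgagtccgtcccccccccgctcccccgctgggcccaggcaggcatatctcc
Igtp: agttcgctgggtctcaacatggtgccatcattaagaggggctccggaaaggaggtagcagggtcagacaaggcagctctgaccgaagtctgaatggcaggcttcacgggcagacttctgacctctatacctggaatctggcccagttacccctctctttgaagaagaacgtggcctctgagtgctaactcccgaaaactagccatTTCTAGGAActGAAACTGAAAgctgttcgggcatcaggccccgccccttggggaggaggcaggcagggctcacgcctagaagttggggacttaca
Irgm2: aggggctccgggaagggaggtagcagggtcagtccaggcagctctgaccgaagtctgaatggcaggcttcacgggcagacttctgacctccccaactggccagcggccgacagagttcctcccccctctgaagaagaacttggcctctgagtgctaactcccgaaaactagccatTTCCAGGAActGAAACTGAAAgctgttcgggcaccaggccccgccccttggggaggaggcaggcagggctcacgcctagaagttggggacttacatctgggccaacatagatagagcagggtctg

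The first motif began at position -165 from the gene start in Gbp5, -53 in Gbp7, -59 in Gbp2, -34 in Igtp and -64 in Irgm2. Irgm1 held 2 overlapping matches. Gbp5 and Gbp7 held 2 matches to the second motif each, and Igtp and Irgm2 held 1 each. The promoters of Igtp and Irgm2 were alike: 184 of 270 aligned bases were identical (68.1%) at an offset of 30 bases, without gaps. The other pairs of member promoters were identical at 27.7% to 34.9% of bases under the best such offset. The weakly differing members Gbp7 and Irgm2 held the same 2 motifs as their strongly differing neighbours Gbp5 and Igtp.

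Across the 8 libraries each member was compared with the mean of all members. Each is part of that mean, and the 3 groups lie apart in it, so high correlations are built in. The Pearson correlation of each member with the mean of the standardized members was lowest for Irgm2 (r = 0.933) and Gbp7 (r = 0.986), and highest for Gbp9 (r = 0.999), as a description of 8 libraries in 3 groups. The genes outside the list whose levels were most like this mean, by the same measure, were Eif1a (r = 0.9995), Ift57 (r = 0.9982), Zc3h12a (r = 0.9972), Xaf1 (r = 0.9972) and Arid5a (r = 0.9971). They were picked for this likeness, which largely fixes how they differ between the groups and between the dual-treated mice. Their values are therefore given as a description, without a test. Eif1a, a translation initiation factor gene, was at 61.4, 61.8 and 60.8 CPM in the control mice, 145, 141 and 145 in the LPS mice and 86.3 and 69.7 in the dual-treated mice. Its groups did not overlap, and mouse 2 was the higher of the dual-treated mice (log2 fold change 1.23, LPS group against control group). Zc3h12a, which encodes an RNase that degrades cytokine mRNAs, was at 20.1, 18.7 and 21.4 CPM in the control mice, 360.2, 295 and 339 in the LPS mice and 54.0 and 37.0 in the dual-treated mice (log2 fold change 4.05, LPS group against control group). Ift57, a gene of ciliary transport, was at 1.49, the interferon-induced Xaf1 at 2.93 and Arid5a, which encodes an RNA-binding protein, at 2.95 on the log2 scale in the LPS group.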

How the data were processed

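Raw gene counts from the lungs of 8 mice were used. The authors trimmed reads with Trim Galore, checked them with FastQC 0.11.9, aligned them to GRCm39 with HISAT2 2.2.1 and counted reads per gene with featureCounts 2.0.1; the deposited counts are not normalized. Libraries held 19061949 to 20908608 counts, and the lowest count of a member was 56, for Gbp6.

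Of 55416 identifiers, 54749 were matched to GENCODE M39 and 667 were not. Counts were fitted in R 4.3.3 with edgeR 4.0.16 (filterByExpr, TMM scaling, quasi-likelihood test, 3 groups, 8 libraries, 5 residual degrees of freedom), with Benjamini-Hochberg adjustment over 18560 genes. CPM are TMM-scaled. Standard errors are the log2 fold change over the root of the F statistic. Code was tested on simulated data. DESeq2 1.42.0, other scalings, filters and call rules, and leaving out mice were tried as alternatives. Genes named are the members, every gene of the other GBP and IRG lists, and the 4 most abundant of each other pathway list. Further genes of those lists are named where their role is described or where their calls or low counts set them apart. The nearest tested genes by position and the 5 most like the members are also named. The members and lists were chosen with earlier results of these data known. Listed symbols with no match were not analysed. A gene of the kinase and transcription factor list is not reported here.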

Additional observations from a re-analysis of the deposited data

How the results depend on the processing

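No paired analysis was possible because the groups share fewer than 2 mouse numbers. The dual-treatment group holds 2 mice, and bulk lung gives no cell types.

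With no fold criterion the adjusted test called 8 members in the dual-treatment group against the control group (5 in the main analysis), and edgeR's test against a fold change of 2 called 0 (2 at an unadjusted p under 0.05; DESeq2 with the main rule, 5). Leaving out 1 mouse at a time gave 0 to 6 members there, 9 to 9 in the LPS group against the control group and 8 to 9 in the dual-treatment group against the LPS group. The log2 fold change of Irgm2 in the dual-treatment group against the LPS group turned to 0.005995 with library size only.

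Over all genes, upregulated and downregulated calls with no fold criterion numbered 6046 and 6300 (LPS group against control group, 3318 and 3961 in the main analysis), 1695 and 1302 (dual-treatment group against control group, 974 and 353), and 5875 and 5085 (dual-treatment group against LPS group, 3666 and 2598). The test against a fold change of 2 gave 2175 and 2605, 333 and 35, and 2082 and 1296. With at least 10 counts in every library, upregulated calls were 2184 in the LPS group and downregulated calls 1688 in the dual-treatment group against the LPS group. Unadjusted p gave 637 downregulated genes in the dual-treatment group against the control group. Leaving out 1 mouse gave 596 to 1120 upregulated and 156 to 711 downregulated genes there.

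Alternative values of the members' log2 fold changes were split by the main call. In the LPS group against the control group, 160 of 162 values of called members kept the call and 1 of 18 values of the uncalled member gained it. In the dual-treatment group against the control group, 72 of 90 kept it and 5 of 90 gained it. Against the LPS group, 144 of 144 kept it and 2 of 36 gained it, and the uncalled Irgm2 turned direction in 1.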
